A study of Drosophila melanogaster with 23 samples.

Results

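Isolated accessible regions are short stretches of open chromatin that lie far from every other accessible stretch of the same chromosome arm. They were defined here on the fly genome build dm3 from the peaks of 22 ATAC-seq libraries of the early Drosophila melanogaster embryo. Peaks of the arms X, 2L, 2R, 3L, 3R and chromosome 4 were joined wherever they shared 1 bp or more, which gave 25311 merged regions. Of these, 22732 were found in at least 2 of the 22 peak lists. A region counted as isolated when, in addition, no other merged region of any list lay within 10 kb of either edge. This held for 545 regions, 2.40% of the 22732, and the 22187 others served as the comparison. A region is called found in a library when its list has a peak there, and missing otherwise.

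ATAC-seq reads out open chromatin by letting the Tn5 transposase cut and tag DNA that is not wrapped in nucleosomes. In the blastoderm, the single-layered embryo just before gastrulation, such sites are mostly promoters, enhancers and insulators. Many enhancers that read the anterior-posterior patterning factors lie close together around their target gene, whereas others act over long distances from sites within otherwise closed chromatin. Pioneer factors such as Zelda and GAGA factor open many of these sites before the zygotic genome is broadly transcribed.

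Embryos at stage 5, all in a wild-type background, carried a transgene that labels nuclei with UNC84-3xFLAG under a patterning enhancer, and labelled nuclei were pulled down with an anti-FLAG antibody. From anterior to posterior the enhancers were those of the anterior hunchback domain (D1), even-skipped stripe 1 (D3), even-skipped stripe 2 (D2), the central Dichaete domain (D4), the central Kruppel domain (D5), even-skipped stripe 5 (D6) and the posterior giant domain (D7). D1 used a Hs34 promoter, D2, D3 and D6 a DSCP promoter, and D4, D5 and D7 a Hs43 promoter, as the labels spell them. The eggs for every library were laid within 20 min, aged for 150 min and frozen 190 min after laying began. Tagged nuclei gave 14 libraries, 2 for each of the 7 domains. Whole-embryo libraries, made from all nuclei without the pull-down, came from the D1, D4, D5 and D7 strains, 2 each and 8 in all. The study describes the duplicates as independent transgenic strains of the same construct, although both D3 libraries carry the strain name D3 line A. Any p-value below therefore measures the spread between these libraries. In the comparisons along the axis, the 2 libraries of a domain were counted separately. A side held only 2 to 5 domains, so these p-values do not measure the spread between domains. Genomic DNA of larval tissues was the authors' reference for calling peaks and was not analysed here. The lists held 16830 to 22169 peaks on the 6 arms, and the read depth behind them was unknown, so a missing peak does not show that a site was closed. No gene was linked to a region, since no dm3 annotation was used, and the domain labels were not checked against marker genes.

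The isolated regions were narrow, and a smaller share of them than of the other regions was found in 20 of the 22 libraries. In tagged nuclei 62.2% ± 9.28 of the isolated regions were found per library, against 71.6% ± 7.21 of the other regions (mean ± SD over 14 libraries). In whole embryos the shares were 69.1% ± 5.40 for isolated regions and 77.5% ± 2.23 for other regions (SD, n = 8). The median merged width was 350 bp for isolated regions, against 536 bp for the other regions. At like merged width the order was mixed. Isolated regions of 250 to 500 bp were found in a mean of 14.3 lists, against 12.6 for other regions. At 500 to 1000 bp the means were 19.8 and 19.2, below 250 bp 3.72 and 4.06, and from 1000 bp 21.4 and 21.6. The part of width in the lower share found was not tested. With a region's fold taken as the median of the authors' fold enrichment over the lists that hold it, the median region had 2.40 among isolated and 2.41 among other regions. The highest such region medians were 16.6 among isolated and 33.7 among other regions, and the highest folds in any single list were 20.7 and 78.3. The choice of the isolated regions used the same peak calls, so these set-wide values are descriptions without a test.

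The limit of 10 kb divided a continuous range of distances. The member closest to it, 2L:5381300-5381827, had 10002 bp free on its shorter side and was found in all 22 lists with a median fold of 3.24. The next, 3R:16787839-16788100, had 10018 bp free and was found in 10 lists. Just outside, 2R:11348363-11348721 and 2R:11358709-11359254 had the same gap of 9987 bp between them and were found in 7 and 10 lists. Among members the shorter free side had a median of 16980 bp and ran up to 138381 bp. A further 82 regions met the distance rule but were found in 1 list only and were left out. Their median width was 215 bp, and the 39 members found in exactly 2 lists had a median width of 233 bp.

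Isolated regions lay beside some of the long empty stretches of the genome and not beside others. Of the 2343 stretches of more than 10 kb without any region, 932 bordered an isolated region and 1411 did not. The 932 added up to 28.9 Mb, which was 24.0% of the 120.2 Mb between the first and last region of each arm, and the 1411 to 35.2 Mb (29.3%). For 262 of the 545 isolated regions (48.1%), the next region on at least 1 side was isolated too. These formed 106 runs, and the longest was 9 isolated regions in a row on 3R, from 23852494 to 24105118, a span of 252.6 kb. Members of that run were found in 4 to 22 lists, and 2 of the 9 were found in all 22. A run of 5 on 3L, from 24224492 to 24466116, had 1 region found in all lists. A run of 4 on X, from 19855537 to 20005086, was found less often in tagged nuclei. Its regions were found in 25.0% of tagged libraries and in 68.8% of whole-embryo libraries, averaged over the 4 regions. The 3L run went the same way, with 47.1% and 77.5%. A run of 4 on 2L, from 16031113 to 16124534, went the other way, with 60.7% and 53.1%. For all isolated regions on X the shares were 61.7% and 75.3%. The tagged shares include domains without a whole-embryo library.

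The chromosome arms carried unequal numbers. There were 124 isolated regions on 2L, 134 on 3R, 113 on 3L, 90 on X and 83 on 2R. Per Mb this was 5.40 on 2L, the densest arm, and 3.93 on 2R, the sparsest of the 5 long arms. The small chromosome 4 held a single isolated region beside 450 other regions. Along the arms, the 10 equal parts counted from the centromere held between 40 and 72 isolated regions each. The part next to the centromere held 63, which were 3.07% of the regions there, and the part farthest from it held 46, which were 1.80%. The shares between were uneven, with the lowest in part 2 from the centromere (1.66%) and the highest in part 9 (3.35%). Of the isolated regions in the part next to the centromere 23.8% were found in all 22 lists, the lowest of the 10 parts, against 45.7% in the part farthest from it, the highest. Between these ends the share was uneven too, with 27.5% in part 2, 45.5% in part 7 and 26.4% in part 9.

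The share of isolated regions found was read library by library. In the D1 tagged libraries 69.5% and 73.6% of the isolated regions were found, in D3 67.7% and 51.9%, and in D2 70.8% and 51.9%. The D4 libraries held 66.8% and 61.8%, the D5 libraries 71.7% and 73.9%, the D6 libraries 52.3% and 52.8%, and the D7 libraries 54.5% and 51.0%. In the whole-embryo libraries the shares were 66.1% and 77.6% for the D1 strains, 64.2% and 69.2% for D4, 70.5% and 75.0% for D5, and 68.8% and 61.3% for D7. Both D1 and both D5 tagged libraries were high and all 4 posterior libraries, D6 and D7, were low, whereas the D2 and D3 pairs each held a high and a low library. The other regions were also fewest in D6 (60.3% and 65.1%), D2 replicate 2 (63.6%) and D3 replicate 2 (63.0%). In D7 their shares were 71.2% and 67.2%. These low libraries had the shortest lists, at 16830 to 18529 peaks, and the part of list length was not tested.

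**Figure D1:**
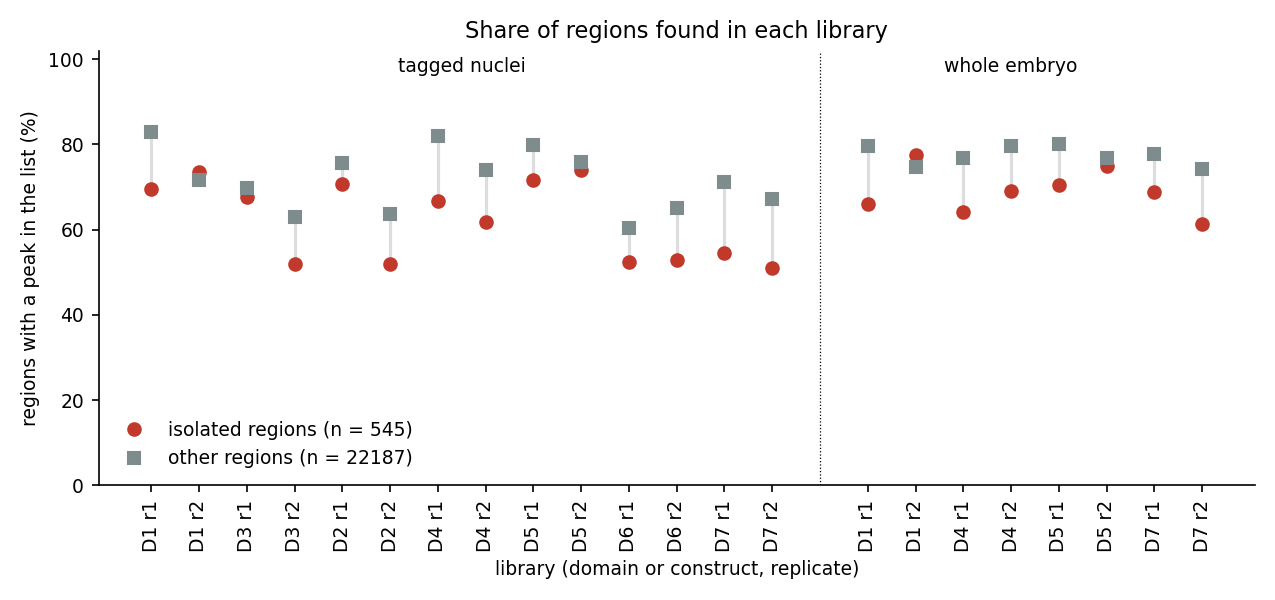
Share of isolated regions (red circles, n = 545) and of other regions found in at least 2 lists (grey squares, n = 22187) with a peak in each of 14 tagged and 8 whole-embryo libraries (percent, y axis), domains from anterior to posterior. Isolated regions lie below the other regions in all libraries but replicate 2 of D1, tagged and whole embryo.

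Within a library, fewer isolated than other regions were found in 13 of the 14 tagged and 7 of the 8 whole-embryo libraries. The difference averaged -9.42 percentage points ± 5.79 (SD, n = 14) in tagged nuclei and -8.37 ± 5.88 (SD, n = 8) in whole embryos. The exceptions were replicate 2 of D1, where isolated regions were ahead by 1.91 points in tagged nuclei and by 2.94 points in the whole embryo. The largest gaps were those of D7, at -16.8 and -16.2 points in tagged nuclei. Library names came in 3 styles, a possible batch, and the difference had the same sign within each. It was -12.3 points ± 3.08 (SD, n = 8) in the first style, -5.96 ± 6.38 (SD, n = 11) in the second and -11.7 ± 0.58 (SD, n = 3) in the third. The third style holds only tagged libraries, with 52.2% ± 0.53 of the isolated regions found.

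Whole embryos of the same strains give a matched view of the pull-down. Over D1, D4, D5 and D7, 65.4% ± 8.77 of the isolated regions were found in tagged nuclei and 69.1% ± 5.40 in whole embryos (SD, n = 8 each). For the other regions the shares were 75.6% ± 5.61 in tagged nuclei and 77.5% ± 2.23 in whole embryos. Within a line, the difference between tagged nuclei and whole embryo changed sign with the line in 3 constructs. For lines A and B it was 3.49 and -4.04 points in D1, 2.57 and -7.34 in D4, and 1.28 and -1.10 in D5. The D7 strains differed most, with 14.3 and 10.3 points fewer isolated regions in tagged nuclei than in the whole embryo of the same line. The other regions fell the same way in D7, by 6.59 and 6.96 points. In D7, 5 isolated regions were found in both tagged and neither whole-embryo library, and 34 showed the reverse, together 7.16% of the isolated regions. Among the other regions these counts were 143 and 779, together 4.16%. In D1 they were 14 and 11 for isolated regions and 419 and 354 for the others. In D4 they were 16 and 15 for isolated regions and 399 and 420 for the others, and in D5 17 and 15 for isolated regions and 289 and 396 for the others.

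Isolated regions ran opposite to the other regions between the strains of D1 and D5, and the same way in D4 and D7. In D1, 24 isolated regions were found in both line A libraries (tagged and whole embryo) and neither of line B, and 39 were found in both of line B and neither of line A. Among the other regions the same counts ran the opposite way, with 1316 for line A and 307 for line B. In D5 the counts were 12 for line A and 26 for line B among isolated regions, against 954 and 411 among the others. In D4 and D7 line A was ahead in both sets, with 13 and 10 isolated regions in D4, against 429 and 214 others, and 15 and 6 in D7, against 371 and 211. This split was chosen after the values were seen. Line, replicate number and naming style coincide in these strains and cannot be told apart.

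Pairs of libraries of the same domain agreed less on isolated regions. Of the isolated regions found in either tagged library of a domain, 75.2% ± 3.74 were found in both, against 81.1% ± 1.90 of the other regions (SD, n = 7 domains). The share was lower for isolated regions in 7 of 7 domains, from 69.8% in D2 to 80.0% in D5. In whole embryos the shares were 76.5% ± 4.30 for isolated regions and 83.4% ± 1.79 for other regions (SD, n = 4), lower in 4 of 4 constructs.

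The number of lists per region had 2 ends. All 22 lists held 187 isolated regions (34.3%), compared with 48.0% of the other regions. Between 2 and 5 lists held 125 (22.9%), compared with 16.1% of the others. The remaining 233 (42.8%) were found in 6 to 21 lists, against 35.9% of the others. All 8 whole-embryo lists held 266 isolated regions (48.8%), against 61.6% of the other regions. Another 31 isolated regions were found in tagged nuclei and in no whole-embryo list, 5.69% against 4.75% of the others. Another 6 (1.10%) were found in whole embryos and in none of the 14 tagged lists, and so were 266 of the 22187 other regions, a similar share.

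**Figure D2:**
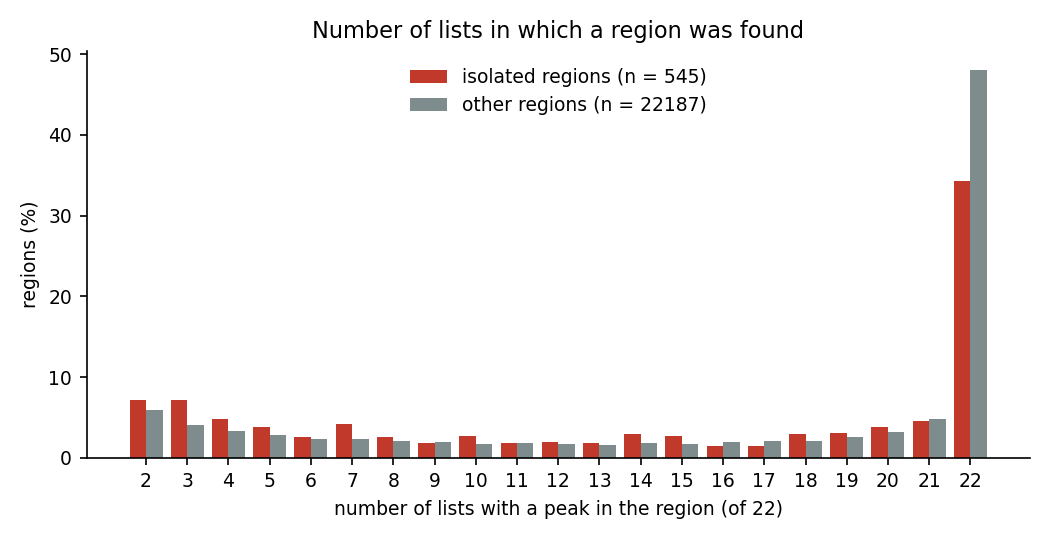
Percentage of isolated regions (red, n = 545) and of other regions (grey, n = 22187) by the number of peak lists, from 2 to 22, that hold a peak in them. The bar at 22 lists is 34.3% for isolated regions and 48.0% for other regions, while isolated regions have the taller bar at 2 to 8 lists.

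Isolated regions were narrower in every list. Merged widths of isolated regions ran from 200 to 4003 bp, with a 10th percentile of 243 bp and a 90th percentile of 691 bp. Only 14 (2.57%) were 1000 bp or wider, whereas 4892 of the 22187 other regions were. Merging of neighbouring peaks widens a region, so widths were also taken within each list. The length covered by peaks in an isolated region had a median of 305, 315 and 331 bp in the lowest, median and highest list, against 461, 486 and 514 bp for other regions, and the sets did not overlap. The ratio of the medians was 0.650 (median of 22 lists) and was below 1 in 22 of 22 lists. Single peaks gave the same order, with medians of 315 bp ± 7.04 in isolated regions and 449 bp ± 13.9 in other regions (SD, n = 22 lists). More than 1 peak of the same list fell in 2.26% ± 0.92 of the isolated regions and in 13.1% ± 1.93 of the other regions.

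Isolated peaks also had fewer summits. In 14 of the 22 lists the name of a peak can end in a letter, which MACS2 adds to the summits of a peak that has several. Such lettered peaks made up 9.66% ± 1.04 of the peaks in isolated regions and 30.7% ± 1.39 of those in other regions (SD, n = 14 lists), lower in 14 of 14. No list held more than 1 letter of the same peak and none held the letter a. The fold and q-value of a lettered peak are therefore those of 1 of its summits, which need not be the highest.

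The authors' fold is the enrichment over genomic DNA at a peak summit, and it is used here only to describe and rank peaks. In the 8 lists without letters the median fold was 2.80 ± 0.087 in isolated regions and 3.07 ± 0.16 in other regions (SD, n = 8), lower in 8 of 8. In the 14 lists with letters the medians were 2.91 ± 0.17 and 2.90 ± 0.18 (SD, n = 14), and the ratio lay on either side of 1. Over the 22 lists the ratio of medians had a median of 0.980. The upper end differed in every list. The 90th percentile of the fold was 6.32 ± 0.46 in isolated regions and 9.33 ± 1.09 in other regions (SD, n = 22), lower in 22 of 22 lists.

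**Figure D3:**
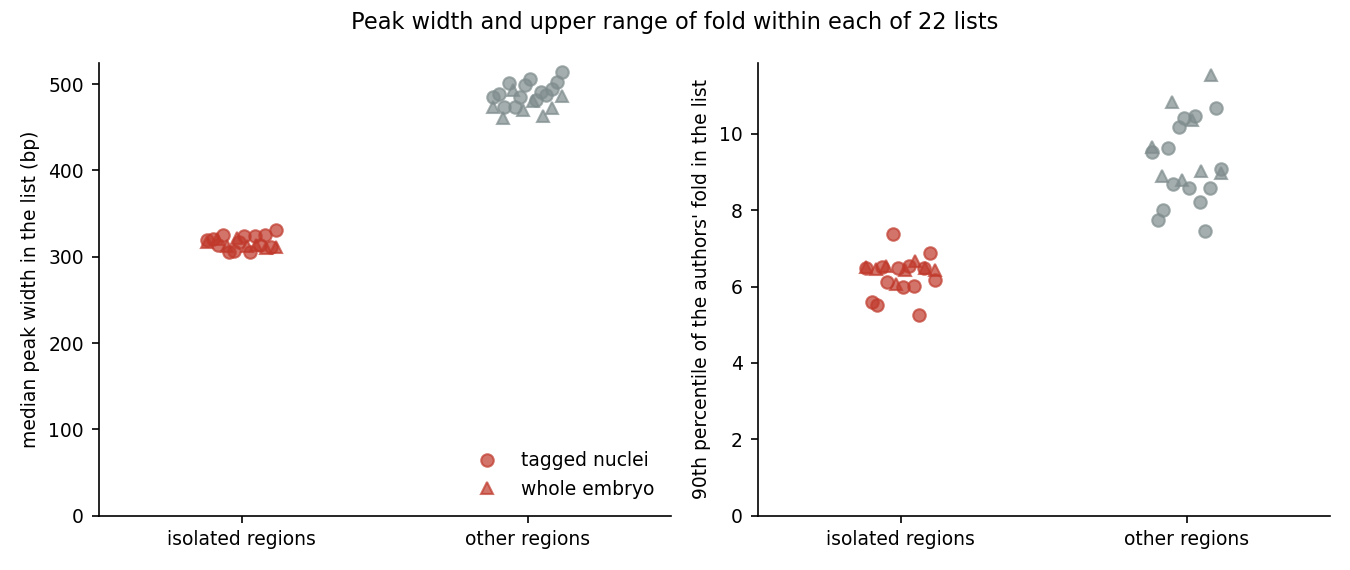
Median length covered by a list's peaks per region (left, bp) and 90th percentile of the authors' fold (right) for isolated regions (red) and other regions (grey), 1 point per list, circles for 14 tagged and triangles for 8 whole-embryo libraries. Isolated regions cover 305 to 331 bp and other regions 461 to 514 bp, and the folds at the 90th percentile average 6.32 and 9.33.

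Within classes of the number of lists, isolated regions stayed narrower without having a lower fold in every class. The number of lists was not matched within the classes of 2 to 5 and 6 to 21 lists. The 187 found in all 22 lists had a median width of 495 bp and a median fold of 3.94, against 874 bp and 4.23 for other regions found in all lists. Those found in 6 to 21 lists had 332 bp and a fold of 2.27, against 416 bp and 1.97. Those found in 2 to 5 lists had 260 bp and a fold of 1.97, against 288 bp and 1.69. Here the fold of a region is the median over the lists with a peak there. When the regions were divided at the quartiles of the other regions' fold (1.85, 2.41 and 4.13), the 4 classes from low to high held 97, 177, 187 and 84 isolated regions. In the lowest class isolated regions were found in 30.7% of the tagged libraries and other regions in 36.2%. The second class had the largest difference, with 39.9% for isolated and 59.3% for other regions. In the third class the shares were 83.5% and 91.2%. In the highest class the shares were 97.9% for isolated regions and 99.8% for others.

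Distance to the nearest region set out the same values as a gradient. Median width was 632 bp for regions with a neighbour within 0.5 kb, 405 bp at 2 to 5 kb and 364 bp at 5 to 10 kb. The isolated regions continued at 372 bp for 10 to 15 kb, 350 bp for 15 to 25 kb and 342 bp beyond 25 kb. The share found in all 22 lists was 53.3% within 0.5 kb, 34.9% at 5 to 10 kb, 33.8% at 10 to 15 kb, 38.3% at 15 to 25 kb and 28.6% beyond 25 kb. The median fold stayed between 2.25 and 2.49 in all 8 classes. Isolated regions just beyond 10 kb thus had values close to those of regions just below it.

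**Figure D4:**
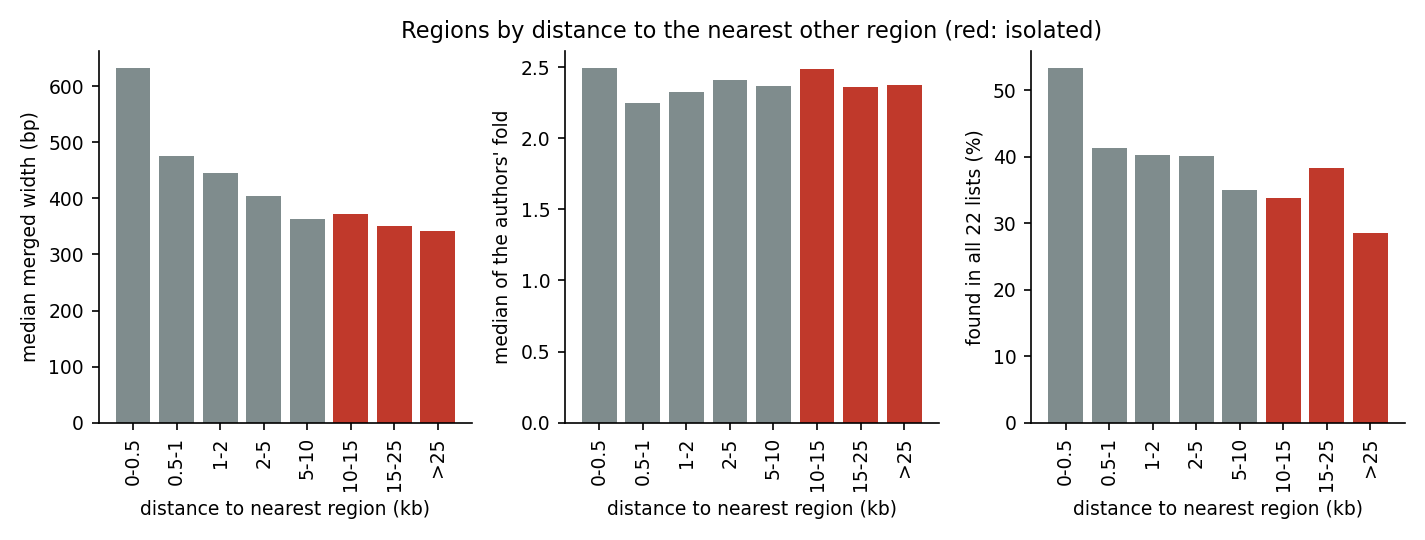
Median merged width (bp, left), median of the authors' fold (middle) and percentage of regions found in all 22 lists (right) for regions found in at least 2 lists, by distance to the nearest other region (kb), with the 3 classes of isolated regions in red. Median width is 632 bp within 0.5 kb, 364 bp at 5 to 10 kb, 372 bp at 10 to 15 kb and 342 bp beyond 25 kb, while the median fold stays between 2.25 and 2.49.

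The strongest isolated regions were found everywhere. X:10933682-10934431, 750 bp wide with 30357 bp free on its shorter side, had the highest median fold. Its fold was 12.9, 16.2 and 20.7 in the lowest, median and highest of the 14 tagged libraries, against a median of 18.5 in the 8 whole-embryo libraries. X:20201222-20201803 followed with tagged folds of 10.5, 14.3 and 17.0 and a whole-embryo median of 16.9. In both, D6 replicate 1 was the lowest tagged library. The next 3 were 2R:18798825-18799926, 2L:6410922-6411814 and 2L:10180106-10180696, with median folds of 12.1, 12.0 and 11.9, all in 22 of 22 lists.

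In each of the 5 widest isolated regions the median fold was lower in the lists with letters. 3R:15728087-15732089, at 4003 bp the widest, had a fold of 8.53 to 11.2 in the 8 lists without letters and of 3.44 to 9.32, with a median of 4.09, in the 14 lists with letters. 2L:10056523-10060032, 3510 bp wide, had 10.5 to 14.7 in the lists without letters, but in 7 of the 14 lists with letters its fold was below 3. X:1215141-1217293 and 2L:20416204-20417990, at 2153 and 1787 bp, had medians of 8.34 and 7.76 in lists without letters and of 5.73 and 3.57 in lists with them. 2L:3712772-3714532, at 1761 bp, was found in 14 of 22 lists, 8 of them tagged, with medians of 2.88 in lists without letters and 1.86 in lists with them. Letters coincide with the style of the library names, and their part in these folds was not tested.

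The regions with the longest empty surroundings were mixed. 3L:23862289-23862509 had 138381 bp free on one side and 158788 bp on the other, and was found in 3 lists, the D5 tagged and the D1 and D5 whole-embryo libraries of replicate 1. 2R:1383274-1383531, with 74004 bp free, was found in 8 tagged and 7 whole-embryo libraries. Among the tagged libraries it was missing from all 4 posterior ones, D2 replicate 2 and D3 replicate 2. Both D7 whole-embryo libraries had it. 2R:17860455-17861072, with 72506 bp free, was found in all 22 lists at a median fold of 5.34. X:19918959-19919258 was found in 18 lists and missing from both D6 libraries, D3 tagged replicate 1 and D7 tagged replicate 2. X:2776540-2777055 was found in all 22.

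Presence along the axis was compared in the tagged libraries, as anterior (D1, D3 and D2, 6 libraries), central (D4 and D5, 4 libraries) and posterior (D6 and D7, 4 libraries), each against the other domains. Fisher's exact test, two-sided, was run on every region that at least 2 of the compared libraries held and at least 2 lacked, with Benjamini-Hochberg adjustment over all 9284 such regions. Of the isolated regions 280 could be tested. None passed an adjusted p of 0.05 in any of the 3 comparisons, and the background was 0% as well. At an unadjusted p under 0.05, 14 isolated regions (5.00%) differed for the anterior domains, against a background of 5.78% of all regions tested. For the posterior domains it was 18 (6.43%) against a background of 3.76%, and 17 of the 18 were found less often in the posterior (6.07%, background 3.48%). For the central domains it was 16 (5.71%) against 5.47%, and 15 of the 16 were found more often in the central domains (5.36%, background 5.22%). Over all regions tested, the median difference in share of libraries, group minus others, was -4.17 points (anterior), -20 (posterior) and 20 (central). Over the isolated regions tested it was 8.33, -25 and 20 points. The posterior lists held 16830 to 18529 peaks, and the part of list length in these unadjusted counts and median differences was not tested. Calls and full separation in lists of equal length are given with the alternatives at the end. With 6 against 8 libraries the smallest p the exact test allows is 0.000333, and with 4 against 10 it is 0.000999. Fully separated regions reach this p, but by Fisher's exact test their adjusted p was 0.0583 (anterior), 0.546 (posterior) and 0.258 (central). No region could therefore pass in these lists, so the absence of calls does not show that the domains were alike.

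Full separation, with every library of one side and no library of the other holding the region, occurred in 1 isolated region in each comparison. The anterior case was 2R:4248692-4249121, 430 bp wide, found in 0 of 6 anterior and 8 of 8 other tagged libraries (Fisher's exact test, adjusted p = 0.0583). Its D4 folds were 1.87 and 2.13, its D5 folds 1.91 and 1.71, its D6 folds 2.05 and 2.40, and its D7 folds 1.57 and 1.65. In whole embryos it was found in 1 of 8 libraries, replicate 2 of D1, at a fold of 1.62. One such region among 280 is 0.357%, against a background of 0.571%.

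The posterior case was 2L:4256812-4257304, found in 0 of 4 posterior and 10 of 10 other libraries (Fisher's exact test, adjusted p = 0.546). Its fold was 1.24, 1.58 and 2.22 in the lowest, median and highest of those 10, and the 4 central libraries were the lowest of them, at 1.24 to 1.52. Whole embryos had it in 4 of 8 libraries. The background of full separation was 0.183% for the posterior domains. The next posterior case, X:3925058-3925361, was found in 0 of 4 posterior and 9 of 10 other libraries, missing among those only from D3 replicate 2.

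The central case was 2L:16080500-16080813, 314 bp wide, found in 4 of 4 central and 0 of 10 other tagged libraries and in none of the 8 whole-embryo libraries (Fisher's exact test, adjusted p = 0.258). Its folds were 1.79 and 1.82 in D4, and 1.59 and 1.52 in D5. The background was 0.388%. 3L:17915870-17916211 was close to this pattern, found in 4 of 4 central libraries with folds of 1.83 to 2.03, in D6 replicate 2 among the others, and in no whole-embryo library. The opposite case was 3L:13830465-13831107, found in 0 of 4 central and 9 of 10 other libraries. Whole embryos had it in 8 of 8 libraries, 4 of them from the D4 and D5 strains.

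Anterior regions without full separation came next. X:7704765-7705073 was found in 5 of 6 anterior and 0 of 8 other libraries, with folds of 2.39 to 3.21 and only D2 replicate 2 missing. 2L:17855124-17855507 was found in 5 of 6 anterior and 0 of 8 other libraries, with D1 replicate 1 missing. Both had an adjusted p of 0.255 by Fisher's exact test. In whole embryos X:7704765-7705073 was found in 6 of 8 libraries and 2L:17855124-17855507 in 3 of 8.

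In tagged nuclei against whole embryos of the same strains, 291 isolated regions could be tested among 9055 regions. None passed an adjusted p of 0.05 by Fisher's exact test, with a background of 0%, and 12 (4.12%) had an unadjusted p under 0.05, against a background of 3.01%. Tagged and whole-embryo libraries are paired by strain, and with the strain as a block 3 isolated regions (1.03%) had an unadjusted p under 0.05, against a background of 0.883%. No isolated region was fully separated, with a background of 0.011%. The 1 fully separated region among all tested did not pass the adjusted threshold either, so no region could. The smallest exact p among the isolated regions was 0.00699 (adjusted p = 1), shared by X:10964789-10965114 and 3L:24074223-24074578, each found in 2 of 8 tagged and 8 of 8 whole-embryo libraries.

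Single domains were compared with the whole embryo by count, because 2 libraries against 8 cannot pass an adjusted threshold. A region was called lost in a domain when both of its tagged libraries lacked it and all 8 whole-embryo libraries had it. D1 lost 1 isolated region (0.183%, background 0.374%), D3 lost 8 (1.47%, background 2.02%) and D2 lost 2 (0.367%, background 0.902%). D4 lost 4 (0.734%, background 0.55%) and D5 lost 5 (0.917%, background 0.528%). The posterior domains lost the most, with 17 in D6 (3.12%, background 2.69%) and 12 in D7 (background 1.41%). In at least 1 domain 32 isolated regions were lost, 5.87% against a background of 5.2%. Without D3 tagged replicate 1 the count of lost isolated regions was 53, and with every list shortened to the same length by peak width it was 12.

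**Figure D5:**
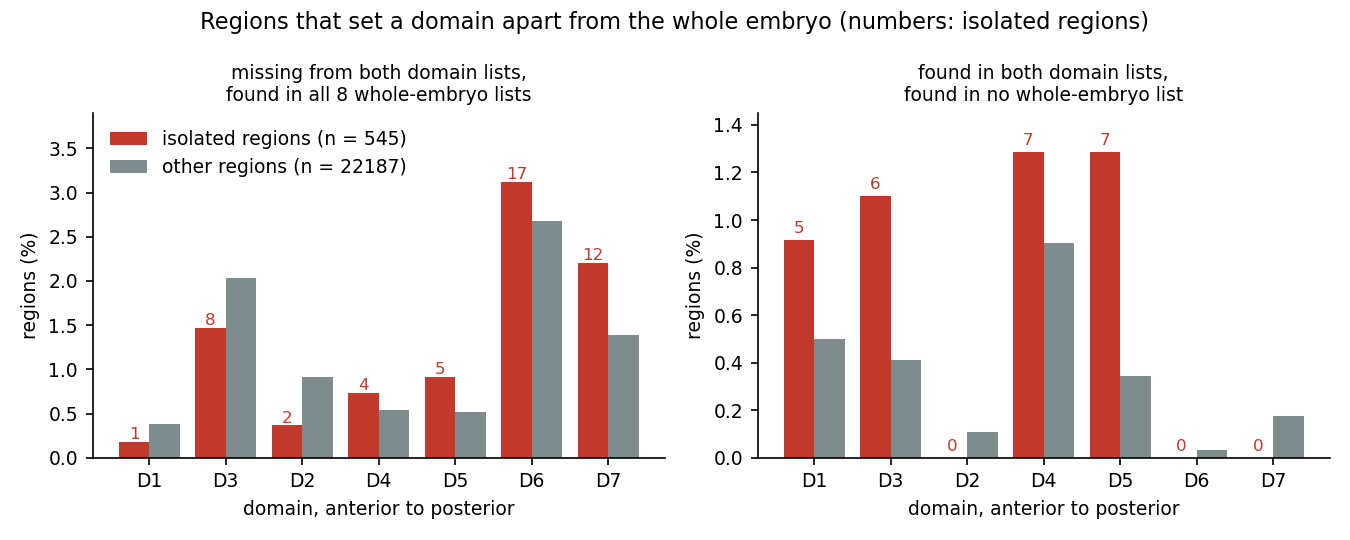
Percentage of isolated regions (red, n = 545) and other regions (grey, n = 22187) absent from both tagged lists of a domain but in all 8 whole-embryo lists (left), or in both tagged lists of a domain but absent from the whole-embryo lists (right), with the number of isolated regions above the red bars. D6 and D7 lost the most isolated regions, 17 and 12, and isolated regions were gained in D1, D3, D4 and D5 only.

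3L:24074223-24074578 was lost in the most domains, 5 of 7, all but D4 and D5, where replicate 1 had it at folds of 1.78 and 2.24. In whole embryos it was in 8 of 8 libraries, with a fold of 1.77, 2.23 and 2.75 in the lowest, median and highest. X:10964789-10965114 was lost in D4, D5, D6 and D7. It was found in both D1 libraries at 2.75 and 2.64 and in replicate 1 of D2 and D3, and its folds in whole embryos ran from 2.07 to 3.23. 2R:17787645-17787948 was lost in D5, D6 and D7.

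Chromosome X held 12 of the 32 lost isolated regions. That is 13.3% of the 90 isolated regions on X, against 4.63% of the other regions on X. On 2L, 2R, 3L and 3R the lost share of isolated regions was 2.42% to 6.19%. On X the isolated regions were found in 64.0% ± 12.6 of cases in tagged nuclei and 75.3% ± 7.41 in whole embryos of the same strains (SD, n = 8 each). For other regions on X the shares were 74.7% ± 7.05 in tagged nuclei and 77.0% ± 2.75 in whole embryos. The chromosomes were set apart after the values were seen.

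Gained regions, found in both tagged libraries of a domain and in no whole-embryo library, were fewer. D1 gained 5 isolated regions (0.917%, background 0.51%), D3 gained 6 (1.10%, background 0.427%), D4 gained 7 (1.28%, background 0.911%) and D5 gained 7 (1.28%, background 0.365%). D2, D6 and D7 gained none, with backgrounds of 0.106%, 0.0308% and 0.172%. In at least 1 domain 18 isolated regions were gained, 3.30% against a background of 2.01%. With every list shortened to the same length by peak width the count was 29. 2R:10270833-10271216 was gained in 3 domains, D1, D3 and D4, with a median fold of 1.81 over 7 tagged libraries. X:20161009-20161567 was gained in D1 and D3, and 2R:14980643-14980982 and 2L:15141401-15141843 in D3 and D5. All 18 had median folds between 1.56 and 2.22, below the median of 2.40 of the isolated regions. By arm, the gained share was 8.43% of isolated and 1.52% of other regions on 2R (7 of 83 isolated regions), and 4.03% of isolated and 1.47% of other regions on 2L. It was lower for isolated regions on X (1.11% against 1.46%), 3L (1.77% against 1.91%) and 3R (2.24% against 3.25%).

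Variation between domains was counted without the whole embryo as well. A region was called domain-variable when both libraries of at least 1 domain had it and both libraries of at least 1 other domain lacked it. Of the 539 isolated regions found in tagged nuclei, 183 (34.0%) were domain-variable, against a background of 23.8%. A region found in all 14 tagged lists cannot be domain-variable, and 34.9% of all isolated and 48.4% of all other regions were found in all 14. The share of domain-variable regions thus depends in part on how often the regions were found. Both libraries of exactly 1 domain, and no other tagged library, held 18 isolated regions (3.30%), compared with 1.29% of the other regions. Of these, 11 were in D1, 1 in D3, 6 in D5 and none in D4, where the other regions had 114 in D1, 22 in D3, 53 in D5 and 66 in D4. Conversely, 8 isolated regions (1.47%) were missing from both libraries of exactly 1 domain and found in the 12 others, against 149 of the other regions (0.672%). Those 8 were 2 in D3, 1 in D6 and 5 in D7, and the other regions had 28 in D3, 57 in D6 and 36 in D7. The tagged lists of D1 and D5 held 19117 to 22169 peaks and those of D6 and D7 16830 to 18529. The part of list length in the counts of single domains was not tested.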

How the data were processed

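The authors deposited 1 peak list per library, with dm3 coordinates. Per the submitters' processing notes, reads were handled with Bowtie2 2.2.9, SAMtools 1.3.1 and MACS2 2.1.1.2, and per the file headers the lists were written with rtracklayer 1.40.3. Whether reads were shifted to the transposase cut site is not given in the sources used here. The deposited score of a peak was not used. The authors' fold (a ratio over genomic DNA at the summit) and −log10 q-value described, ranked or filtered peaks, and the lowest −log10 q in any list was 2.00. Where a list had several peaks in a region, their highest fold and summed width were taken. The genomic DNA sample had no list and was not analysed here, and peaks outside the 6 arms were left out.

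The isolated regions, the counts and the named regions were chosen with earlier results of these data known. Named were the 5 isolated regions with the highest median fold, the 5 widest, the 5 with the longest empty side, those nearest to the limit, those fully separated, and up to 3 with the smallest Fisher p in each comparison and direction. Others, such as lost or gained regions and runs, were named after their values were seen. Anterior, central and posterior groups came from the known positions of the labelled enhancers. Python 3.11.15 with numpy 2.4.6, scipy 1.17.1 and pandas 2.3.3 was used, and matplotlib 3.10.9 for plots. The Fisher test was tested on simulated data that held more fully separated regions than these lists. Those simulations do not show that the test could call such a region here. Strain names in the labels pair tagged and whole-embryo libraries. Presence in same-strain pairs, less the group means, correlated at 0.194 on average (-0.0171 to 0.359 over 8 pairs), against -0.0280 between strains. Of the 8 tagged libraries, 5 were most alike the whole-embryo library of their own strain. Both libraries of each pair share a naming style, so strain and naming style cannot be told apart here. Alternatives covered the distance limit, the number of lists, neighbours, peak thresholds, list length, overlap, naming style, the replicate block and leaving out each library.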

Additional observations from a re-analysis of the deposited data

How the results depend on the processing

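Limits: lists give presence only, depth is unknown, each domain has 2 libraries, and naming style coincides with replicate number in several strains. A smaller share of isolated than of other regions was found, and their peaks were narrower, under every alternative run. None of these alternatives matched the regions by width. The number of isolated regions was 1312 at 5 kb and 202 at 20 kb, and was not recomputed within a naming style. At 5 kb, 3 isolated regions were fully separated for the anterior, 3 for the posterior and 2 for the central domains, 74 were lost and 36 gained. At 20 kb, 0 were separated for the anterior domains, 13 were lost and 8 gained. Requiring 1 list put the whole-embryo share found at 60.7%. Requiring 5 lists put it at 81.9% and the tagged share at 74.0%, with 0 separated for the central domains and 5 gained. Ignoring neighbours found in 1 list left 2 separated for the central domains. With a −log10 q of at least 10, the width ratio was 0.628, the fold ratio 0.860, and 0 were separated for the anterior and 0 for the posterior domains. With the strongest 50% of each list the width ratio was 0.680 and the fold ratio 0.866. Then 0 were separated for the central domains and 1 isolated region, 3R:10324000-10324427, passed Fisher's exact test for the anterior domains (adjusted p = 0.0461). In the full lists that region was not isolated and was found in 5 of 6 anterior libraries. Lists of equal length by width also gave 1 call of the exact test, 2R:4248692-4249121 (adjusted p = 0.0468), and the anterior test called 0 isolated regions under its other alternatives. With those lists the width ratio was 0.680, 0 were separated for the central domains, 12 were lost and 29 gained. With lists of equal length by fold, 0 were separated for the posterior and 0 for the central domains. Requiring peaks to cover 50% of a region put the width ratio at 0.611. The fold ratio, 0.980 in all lists, was above 1 with lists of equal length by width (1.02), within naming style 2 (1.01), with unlettered peaks only (1.03) and with the mean of a region's peaks (1.01), and was 0.914 within naming style 1. Within naming style 1 the fully separated counts were 50 for anterior, 39 for posterior and 36 for central domains, with 51 lost and 48 gained. Within style 2 they were 10, 16 and 11, and 4 for tagged nuclei against whole embryos, with 85 lost and 44 gained. Within style 3 they were 53 for anterior and 53 for posterior domains, and the tagged share was 52.2%. Fewer libraries make full separation, loss and gain easier to reach. Style 3 holds no central and no whole-embryo library. Leaving out each library in turn gave 540 to 553 isolated regions, a tagged share of 61.9% to 63.6%, a whole-embryo share of 68.8% to 70.3%, differences from other regions of -10.0 to -8.54 points in tagged nuclei and -9.02 to -7.73 in whole embryos, width ratios of 0.645 to 0.656 and fold ratios of 0.962 to 0.988. Fully separated counts were 1 to 2 for anterior, 1 to 3 for posterior and 1 to 3 for central domains and 0 for tagged nuclei, with 32 to 53 lost and 18 to 26 gained, and Fisher's exact test called 0 isolated regions throughout. With the replicate number as a block, or the strain for tagged nuclei against whole embryos, the exact test also called 0 isolated regions in each of the 4 comparisons, with smallest adjusted p-values of 0.143, 0.686, 0.477 and 1 over all regions. Replicate numbers do not pair libraries across domains, where the mean correlation was -0.0689. The cause of these changes was not tested.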
